A study of Mus musculus with 12 samples.

Results

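The heat shock proteins and their partner chaperones were followed here across mouse livers sampled at 2 times of day. The set is a list of 38 gene symbols, and its members are the rows of the deposited tables that carry one of those symbols. Of the 38 listed symbols 37 were found, out of 48440 genes in the tables. The symbol Hspa14 does not occur as such: its gene identifier, ENSMUSG00000109865, is listed as Hspa14_1 with 237 to 429 reads per library, and it was not counted as a member. The set has been called cytosolic, which does not hold for every protein in it. Hspa9, Hspd1, Hspe1 and Trap1 encode mitochondrial chaperones, and Hspa13 encodes a protein of the microsomes.

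Poly(A) RNA was sequenced from livers of male C57BL/6 mice of 8 weeks, kept on chow with 12 h of light and 12 h of dark. The 4 groups had 3 libraries each. TG mice overexpressed E4BP4, the repressor encoded by Nfil3, in the liver, and were sampled at ZT14 or at ZT2. WT mice were wild type at the same 2 times, where ZT counts hours from lights on, so that ZT14 lies 2 h into the dark phase and ZT2 lies 2 h into the light phase. The promoter that drives the transgene is not given in the sources used here, and no label says outright that the libraries of a group came from separate mice, so the p-values reflect variation among the libraries, which may be technical. In whole-liver RNA, fewer cells of a type and less RNA per cell cannot be told apart.

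Heat shock proteins keep other proteins folded. HSP70 binds exposed hydrophobic stretches, DNAJ (HSP40) proteins bring it clients and start its ATPase cycle, and nucleotide exchange factors of the HSP110 and BAG families let the client go. HSP90 takes partly folded clients such as steroid receptors from HSP70 through adaptor cochaperones. The transcription factor HSF1 binds heat shock elements, inverted repeats of the letters GAA, and drives many of these genes. In mammals body temperature and feeding rise in the active phase, and liver heat shock genes are known to oscillate over the day.

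The libraries held 16035121 to 23981021 total gene reads, of which 81.2% to 85.5% were uniquely mapped. Nfil3 was measured first, since it is the overexpressed gene. It had 63.8, 93.9 and 77.9 CPM (counts per library, scaled to a common depth) in TG livers at ZT14, against 28.2, 40.4 and 24.6 CPM in WT livers, and 71.1, 69.8 and 62.6 CPM in TG livers at ZT2, against 48.8, 29.4 and 37.6 CPM in WT livers. TG lay above WT in every library at both times, and the difference passed the test at ZT14 (adjusted p = 0.0306) and not at ZT2 (adjusted p = 0.359). The summed level of 8 hepatocyte markers was 64580 to 82100 CPM over all libraries. The second TG library at ZT2 and the third TG library at ZT14 stood apart in the summed level of 14 female-biased liver genes. These libraries had 24.1 CPM, against 7.66 to 12.7 CPM in the other ZT2 livers, and 48.5 CPM, against 14.9 to 25.9 CPM in the other ZT14 livers. Much of each sum came from Cyp17a1, with 12.26 and 27.31 CPM, and Acot3 added 11.25 CPM in the ZT14 library. Several of the 14 genes had few or no reads, and 6 could be tested.

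Levels spanned several orders of magnitude. On the deposited TPM scale, which corrects for exon length, Hspa8 was highest at ZT14, with a mean of 1123 ± 72.8 TPM in TG and 1077 ± 19.2 TPM in WT livers (SD, n = 3 each). At ZT2 Hsp90ab1 was highest, with 694 ± 60.8 TPM in TG and 587 ± 32.7 TPM in WT livers. Hspa8 was then at 544 ± 47.8 TPM in TG and 546 ± 70.1 TPM in WT livers, so the levels of this pair overlapped in WT and were apart in TG. Next came Hspd1, at 254 to 387 TPM over the 12 libraries, and Hspa9, at 211 to 312 TPM. At the low end stood Hspa1a, at 0.0418 to 4.09 TPM, Hspa2, at 1.18 to 6.23 TPM, and Hspa1l, with 0 to 5 reads in each library. Hspa1l, an HSP70 gene of the testis, was the 1 member too low to test, which left 36.

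For 10 members fewer than 90% of the reads were uniquely mapped. Only 19.0% of the Hspa1a reads and 52.0% of the Hspa1b reads were unique, since these are near-identical copies, so how reads divide between them is uncertain. Hspb1 (35.8%), Hspa8 (36.4%), Dnajb6 (40.3%) and Hsp90aa1 (48.2%) also shared reads with other places in the genome. The sources used here do not say whether counting used strand, and some members overlap other genes. Hspa1a overlaps the gene Gm20481 over 2225 bases and Hspd1 overlaps Hspe1 over 112 bases. Among others, Dnajc7 overlaps Cnp over 8912 bases, Dnaja4 overlaps Wdr61 over 1581 and Dnaja1 overlaps Smu1 over 608. How far this affects the member counts, introns included, was not tested.

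Promoters were searched for heat shock elements, because these are the sites that HSF1 is known to bind. RefSeq promoters on GRCm38.p6, from 250 bases before to 50 bases after each annotated start, were matched by symbol for 29 members, which have 39 promoters between them. Hspa8, Hsp90aa1, Hsp90ab1, Hspa9, Hspa13, Hsf1, Cryab and St13 had no entry. A pair of inverted units, GAANNTTC or TTCNNGAA on either strand, was in 17 of the 39 member promoters, those of 15 members, and in 15.1% of all 32851 promoters. The form with 3 units, in which a further GAA or TTC unit follows the pair after NN, contains the shorter one. It was in 7 of the 39, and in 0.603% of all promoters. Those 7 belong to Chordc1, Dnajb6, Hspd1, Hspe1 and Hsph1. The E-box CACGTG, the site of the clock activators, was in 5 of the 39, at Fkbp5, Hsf2, Hspd1 and Hsph1, and in 7.15% of all. The D-box, searched as TTATGNAA and TTACGTAA on both strands because E4BP4 binds such sites, was in 1 of the 39, at Hspa2, and in 3.5% of all. A match describes letters and not binding.

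Shown first are 4 of the promoters with a 3-unit element, then those of Hspa1b and Bag3, which have a single 2-unit match, and that of Fkbp5, which has an E-box and no heat shock element. Capitals mark heat shock element matches and E-boxes. Chordc1 (chr9:18292017-18292316, plus strand) has 3 overlapping 3-unit matches across the start. Hsph1 (chr5:149636266-149636565, minus strand) has such a match after the start and an E-box before it. Dnajb6 (chr5:29735648-29735947, plus strand) and Hspd1 (chr1:55087883-55088182, minus strand) have theirs upstream of the start used. This Hspd1 window lies within the gene as counted (chr1:55077835-55088243). The window of its other start (chr1:55088194-55088493) has the E-box and 0 heat shock elements. Hspa1b lies at chr17:34959189-34959488, minus strand, Bag3 at chr7:128523333-128523632, plus strand and Fkbp5 at chr17:28486100-28486399, minus strand.
Chordc1: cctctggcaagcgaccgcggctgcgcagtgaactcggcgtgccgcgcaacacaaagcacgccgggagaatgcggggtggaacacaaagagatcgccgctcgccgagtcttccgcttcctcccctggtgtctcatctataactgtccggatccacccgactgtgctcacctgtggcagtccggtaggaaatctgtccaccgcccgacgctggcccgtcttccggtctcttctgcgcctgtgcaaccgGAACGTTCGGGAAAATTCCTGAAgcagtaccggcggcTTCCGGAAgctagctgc
Hsph1: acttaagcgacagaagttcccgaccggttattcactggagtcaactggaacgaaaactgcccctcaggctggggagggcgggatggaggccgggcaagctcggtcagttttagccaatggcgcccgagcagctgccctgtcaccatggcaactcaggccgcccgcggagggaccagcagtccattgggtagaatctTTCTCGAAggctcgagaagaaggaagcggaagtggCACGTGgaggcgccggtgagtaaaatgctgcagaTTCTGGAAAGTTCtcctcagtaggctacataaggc
Dnajb6: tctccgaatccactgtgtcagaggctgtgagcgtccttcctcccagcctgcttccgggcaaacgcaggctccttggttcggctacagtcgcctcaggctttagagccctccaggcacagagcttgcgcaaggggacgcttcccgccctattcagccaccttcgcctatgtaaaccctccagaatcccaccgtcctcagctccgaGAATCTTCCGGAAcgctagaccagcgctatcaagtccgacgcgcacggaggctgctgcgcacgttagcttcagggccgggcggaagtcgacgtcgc
Hspd1: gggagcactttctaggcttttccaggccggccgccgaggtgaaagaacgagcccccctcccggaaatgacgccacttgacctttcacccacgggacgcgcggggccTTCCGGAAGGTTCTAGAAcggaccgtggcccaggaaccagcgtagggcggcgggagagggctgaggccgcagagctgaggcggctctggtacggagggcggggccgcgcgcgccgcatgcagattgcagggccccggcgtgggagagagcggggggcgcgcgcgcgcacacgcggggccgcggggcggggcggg
Hspa1b: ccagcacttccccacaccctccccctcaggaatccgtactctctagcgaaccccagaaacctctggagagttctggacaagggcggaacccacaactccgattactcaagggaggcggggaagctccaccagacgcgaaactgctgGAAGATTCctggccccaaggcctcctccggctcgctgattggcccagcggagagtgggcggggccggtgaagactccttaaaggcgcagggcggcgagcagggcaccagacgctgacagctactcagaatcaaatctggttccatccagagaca
Bag3: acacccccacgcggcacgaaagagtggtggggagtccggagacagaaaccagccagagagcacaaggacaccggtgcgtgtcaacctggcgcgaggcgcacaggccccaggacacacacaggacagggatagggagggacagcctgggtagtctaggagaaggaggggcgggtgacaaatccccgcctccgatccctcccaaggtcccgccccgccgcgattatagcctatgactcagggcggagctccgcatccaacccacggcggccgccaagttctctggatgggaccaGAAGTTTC
Fkbp5: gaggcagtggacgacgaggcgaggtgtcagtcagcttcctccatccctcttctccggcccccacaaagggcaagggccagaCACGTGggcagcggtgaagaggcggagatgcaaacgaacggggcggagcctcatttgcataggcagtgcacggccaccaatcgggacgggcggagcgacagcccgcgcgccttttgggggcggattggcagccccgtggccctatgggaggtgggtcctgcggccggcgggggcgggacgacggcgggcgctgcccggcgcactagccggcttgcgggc

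**Figure D1:**
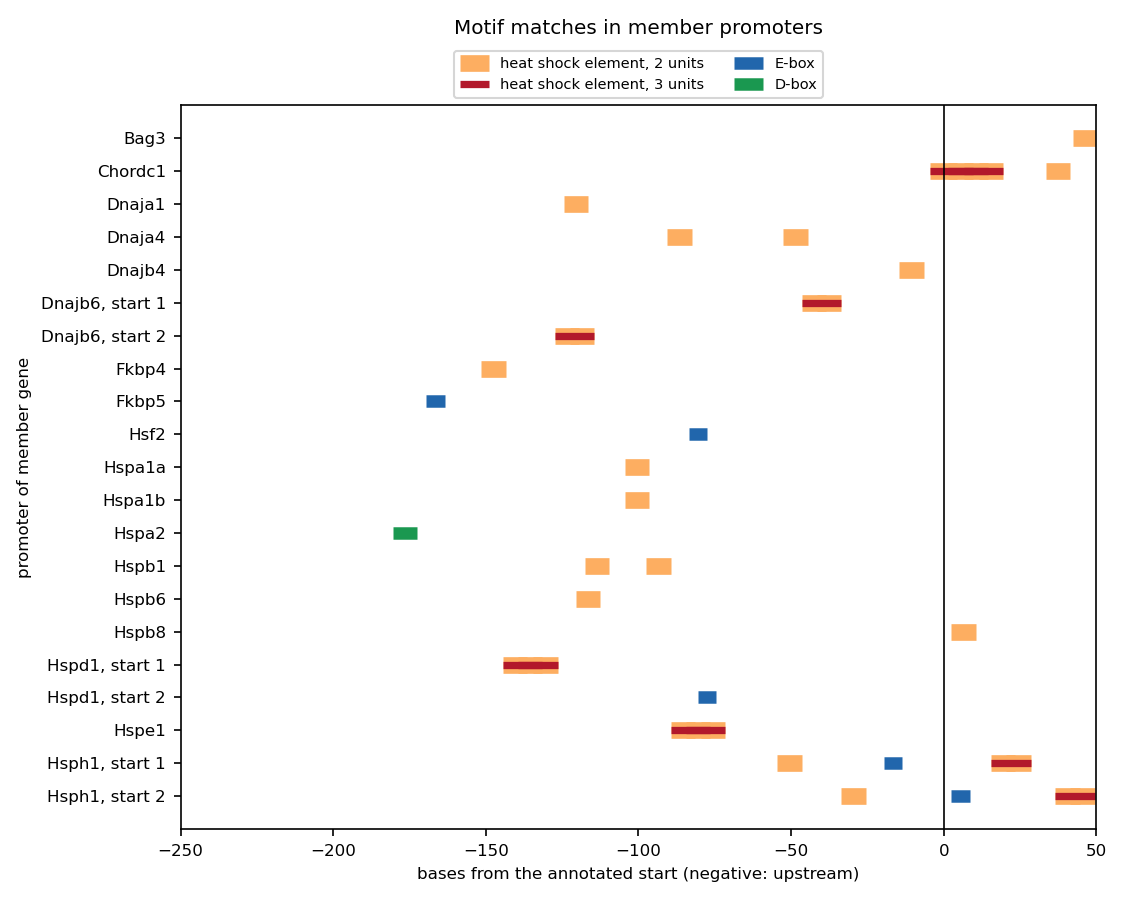
Positions of motif matches in the promoters of members with at least 1 match, in bases from the annotated start (negative is upstream). Orange bars are 2-unit heat shock elements, red lines 3-unit ones, blue bars E-boxes and green bars D-boxes; where a gene has 2 starts, both are drawn, and 3-unit elements appear at 5 members.

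Many of the heat shock and chaperone genes were higher at ZT14 than at ZT2, in TG and in WT livers. Averaged over TG and WT, 21 of the 36 tested members rose at ZT14 and 0 fell, with an adjusted p below 0.05 in edgeR's quasi-likelihood test over 15244 genes. Of all genes tested 22.5% were called in this comparison, and 12.0% were called higher at ZT14. The median log2 difference was 0.34 over the members and 0.001 over all genes, and 34 of the 36 were positive. In TG alone 14 members rose, against 12.2% of all genes called and 6.70% called higher. In WT alone 15 members rose, against 9.17% of all genes called and 4.85% called higher. Hspa1a and Hspb8 were called in TG and not in WT, and Hspa4l, Hspb1 and Fkbp4 in WT and not in TG. Of these calls, that of Hspb1 in WT was lost under 10 of 23 alternative fits. Hspb8 in TG was lost under 5, Hspa1a in TG under 1, and Hspa4l and Fkbp4 in WT under 0. Hsp90ab1, Hspd1, Dnaja2 and Stip1 were called only in the average. The 3 comparisons share libraries, so they are not separate evidence. Without the 2 TG libraries that stood apart, the counts were 19 averaged over genotypes, 12 in TG and 16 in WT.

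Read by library, the 6 ZT14 livers lay above all 6 ZT2 livers in 14 of the 36 members, a pattern seen in 5.90% of all genes. Within TG, the ZT14 libraries lay above the ZT2 libraries in 17 members, against 15.8% of all genes, and within WT in 23 members, against 15.3%. The members that rose include 12 of the 15 with a 2-unit heat shock element in a matched promoter, and 6 of the 13 tested members whose matched promoters had none. For the 3-unit form the counts were 4 of 5 with it and 14 of 23 without, and for the E-box 3 of 4 with it and 15 of 24 without. None of these differences was tested, and Hspd1 and Hspe1 enter the heat shock element counts with the same stretch of bases.

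**Figure D2:**
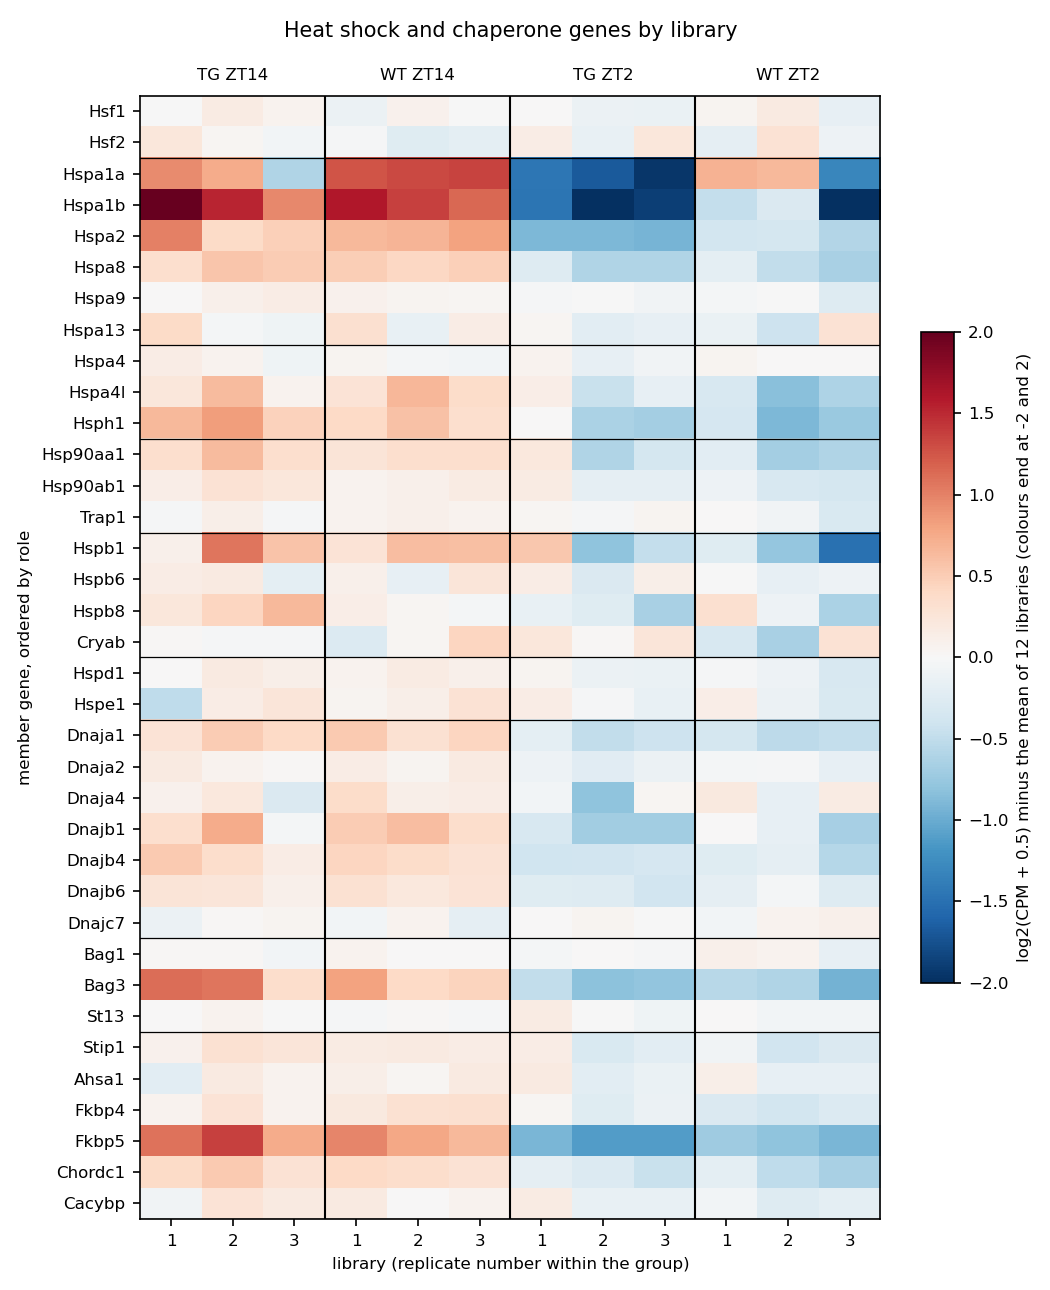
Level of each of the 36 tested members in each of the 12 libraries, as log2(CPM + 0.5) minus the mean of the 12 libraries, with colours ending at -2 and 2. Columns are grouped as TG ZT14, WT ZT14, TG ZT2 and WT ZT2, and lines separate the roles. In 14 of the 36 rows all 6 ZT14 libraries lie above all 6 ZT2 libraries.

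The heat shock factors themselves did not pass the test. Hsf1, the main activator of heat shock genes, ranged from 13.9 to 17.5 CPM over all libraries. Hsf2, its relative with roles in development, ranged from 17.3 to 25.3 CPM. In both genes the groups overlapped, with averaged time differences of 0.06 and -0.09 on the log2 scale (SE 0.07 and 0.10).

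In the HSP70 family 4 of 6 tested members rose. Hspa1b, one of the pair of intronless, stress-inducible HSP70 genes, had 263, 173 and 118 CPM in TG and 184, 157 and 134 CPM in WT livers at ZT14, against 21.5, 10.8 and 15.9 CPM in TG and 43.0, 49.1 and 13.0 CPM in WT livers at ZT2. Every ZT14 liver was far above every ZT2 liver, and the third WT liver at ZT2 lay with the TG livers, below the other two WT livers. The rise was 7.21-fold (log2 2.85, SE 0.31, adjusted p = 4.2e-05). Its neighbour Hspa1a, the second gene of the pair, had 3.63, 3.08 and 0.915 CPM in TG and 4.64, 4.87 and 4.98 CPM in WT livers at ZT14, against 0.289, 0.165 and 0.0535 CPM in TG and 2.96, 2.85 and 0.362 CPM in WT livers at ZT2. Within each genotype every ZT14 liver was above every ZT2 liver, while the third TG liver at ZT14 lay below the first and second WT livers at ZT2. Averaged over genotypes Hspa1a rose 5.88-fold (log2 2.56, SE 0.51, adjusted p = 0.00324). By edgeR it was called in TG (log2 3.88, adjusted p = 0.01) and not in WT (log2 1.23, adjusted p = 0.208).

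Hspa8, the constitutive HSP70 of the cytosol, had 1730, 2015 and 1948 CPM in TG and 1925, 1831 and 1900 CPM in WT livers at ZT14, against 1146, 900.4 and 903 CPM in TG and 1194, 976 and 871 CPM in WT livers at ZT2. The ranges at the 2 times were well apart, and the rise was 1.90-fold (log2 0.92, SE 0.10, adjusted p = 3.1e-05). Hspa2, an HSP70 with a known part in spermatogenesis, was low but clear, with 6.76, 4.22 and 4.53 CPM in TG and 5.18, 5.29 and 5.79 CPM in WT livers at ZT14, against 1.44, 1.43 and 1.39 CPM in TG and 2.31, 2.34 and 1.91 CPM in WT livers at ZT2. No ZT2 library reached any ZT14 library, for a 2.998-fold rise (log2 1.58, SE 0.14, adjusted p = 1.1e-05). Hspa9, the mitochondrial HSP70, had all 6 ZT14 livers above the ZT2 livers, by a narrow gap, and did not pass the test (log2 0.14, adjusted p = 0.125), and neither did Hspa13 (log2 0.20).

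Of the HSP110 proteins, which exchange nucleotide on HSP70, 2 of 3 rose. Hsph1 had 160.3, 182 and 141 CPM in TG and 135, 153 and 129 CPM in WT livers at ZT14, against 103, 65.7 and 63.0 CPM in TG and 80.3, 54.1 and 60.3 CPM in WT livers at ZT2. The ZT14 libraries were all above the ZT2 libraries, with the first library of each genotype the highest at ZT2. The rise was 2.11-fold (log2 1.08, SE 0.13, adjusted p = 0.00013). Hspa4l had 36.4, 48.4 and 32.9 CPM in TG and 37.8, 49.8 and 40.3 CPM in WT livers at ZT14, against 34.3, 22.7 and 27.8 CPM in TG and 25.0, 17.3 and 20.2 CPM in WT livers at ZT2. Here TG overlapped between the times, by the first ZT2 library, and WT did not. Hspa4l rose 1.68-fold (log2 0.75, SE 0.13, adjusted p = 0.00147), while its relative Hspa4 differed by 0.03 on the log2 scale (adjusted p = 0.743).

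In the HSP90 family the inducible and the constitutive cytosolic genes rose, the constitutive one called only in the average. The mitochondrial one did not pass the test. Hsp90aa1, the inducible form, had 323, 400.1 and 326 CPM in TG and 307, 324 and 326 CPM in WT livers at ZT14, against 298, 169 and 201 CPM in TG and 223, 161 and 169 CPM in WT livers at ZT2. The first TG library at ZT2 came close to the ZT14 livers without reaching them. The rise was 1.65-fold (log2 0.72, SE 0.13, adjusted p = 0.00189). Hsp90ab1, the constitutive form, had 1034, 1154 and 1107 CPM in TG and 994, 1018 and 1060 CPM in WT livers at ZT14, against 1056, 831 and 833 CPM in TG and 878, 754 and 743 CPM in WT livers at ZT2. The same TG library at ZT2 lay within the ZT14 range, and the rise was 1.25-fold (log2 0.32, SE 0.08, adjusted p = 0.0119). Trap1 differed by 0.10 (SE 0.06) on the log2 scale.

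**Figure D3:**
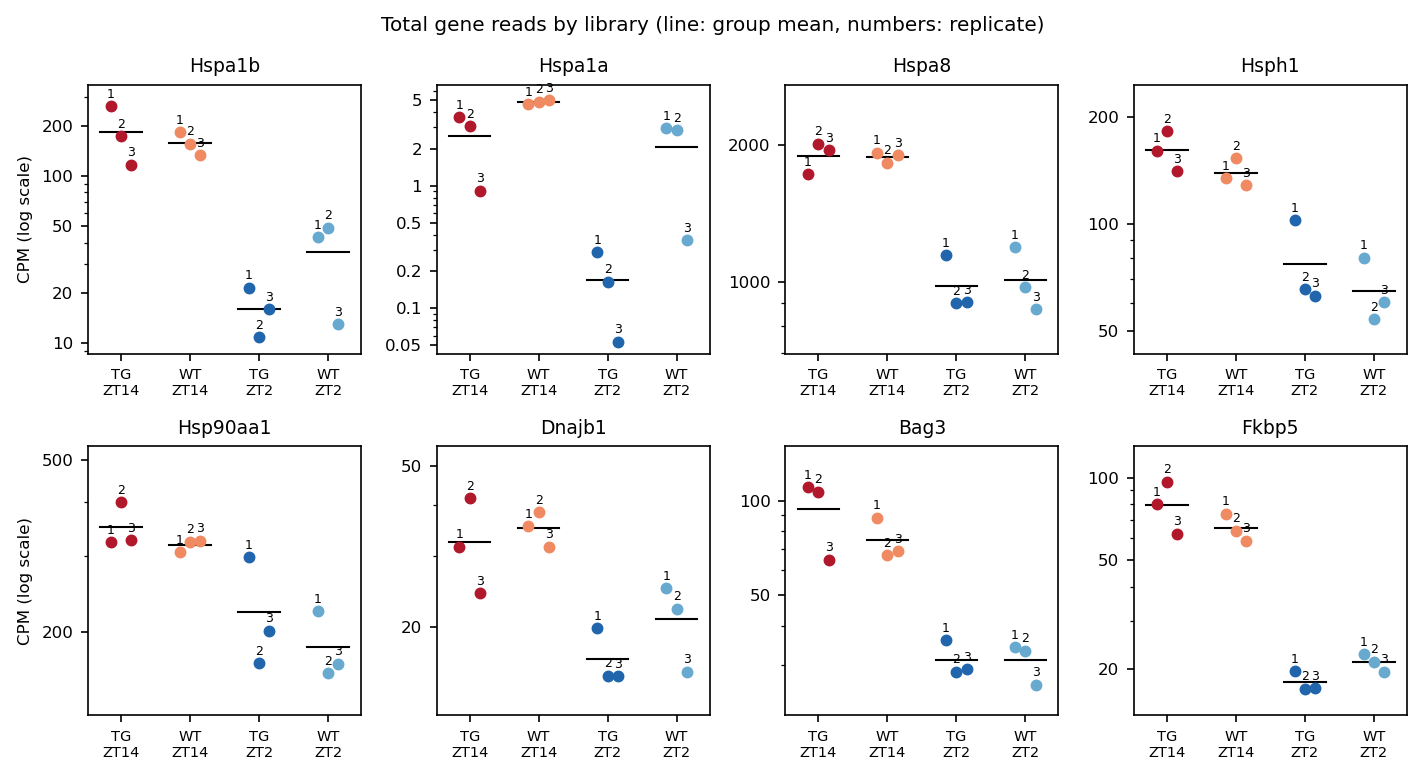
Total gene reads of 8 members in CPM (log axis) in each library of TG ZT14, WT ZT14, TG ZT2 and WT ZT2, with the replicate number beside each point and a line at the group mean. For Hspa1b the 6 ZT14 livers sit between 117.5 and 262.7 CPM, above all 6 ZT2 livers, and for Hspa1a and Hspa1b the third WT liver at ZT2 sits below the other two.

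Small heat shock proteins hold unfolded proteins without using ATP, and 2 of the 4 rose. Hspb1 had 28.3, 55.7 and 39.2 CPM in TG and 32.0, 40.6 and 40.1 CPM in WT livers at ZT14, against 38.4, 14.8 and 18.7 CPM in TG and 22.1, 15.1 and 8.997 CPM in WT livers at ZT2. WT libraries were apart between the times, and the first TG library at ZT2 lay inside the ZT14 range. The rise was 2.04-fold (log2 1.03, SE 0.26, adjusted p = 0.0126). Hspb8, which works with Bag3 in the selective autophagy of damaged proteins, had 141, 161 and 189 CPM in TG and 132, 123 and 117 CPM in WT livers at ZT14, against 108, 102 and 76.6 CPM in TG and 150, 111 and 77.2 CPM in WT livers at ZT2. TG was higher at ZT14 in every library, and WT overlapped. Its averaged rise of 1.37-fold (log2 0.45, SE 0.14, adjusted p = 0.0383) was lost under 10 of 22 alternatives. Hspb6 and Cryab, alpha-B crystallin, are genes best known from muscle and lens, and did not pass the test (log2 0.11 and 0.05). The 12 muscle markers summed to 11.01 to 25.7 CPM over the libraries.

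The mitochondrial chaperonin is a barrel of HSP60, encoded by Hspd1, with a lid of HSP10, encoded by Hspe1. Hspd1 ranged from 298 to 418 CPM and passed the test by little (log2 0.21, SE 0.07, adjusted p = 0.0454). Its rise was 1.154-fold and was lost under 16 of 22 alternatives. Hspe1, which shares a promoter region with Hspd1 on the opposite strand, differed by 0.12 (SE 0.12) on the log2 scale and did not pass the test. With Hspa9 and Trap1, 1 of the 4 mitochondrial members was called.

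Among the DNAJ proteins 5 of 7 rose. Dnajb1, a main HSP40 partner of cytosolic HSP70, had 31.6, 41.6 and 24.2 CPM in TG and 35.6, 38.5 and 31.6 CPM in WT livers at ZT14, against 19.8, 15.1 and 15.1 CPM in TG and 24.9, 22.2 and 15.5 CPM in WT livers at ZT2. The third TG library at ZT14 fell below the highest WT library at ZT2, and all others were apart. It rose 1.81-fold (log2 0.86, SE 0.14, adjusted p = 0.00109). Dnaja1, which pairs with Hspa8, had 321, 378 and 349 CPM in TG and 379.7, 329 and 357 CPM in WT livers at ZT14, against 232, 189 and 199.9 CPM in TG and 208, 185 and 190 CPM in WT livers at ZT2. The groups were far apart in both genotypes and the rise was 1.76-fold (log2 0.81, SE 0.07, adjusted p = 1e-05).

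Dnajb4, a close relative of Dnajb1, had 47.0, 41.9 and 36.3 CPM in TG and 44.2, 42.4 and 39.9 CPM in WT livers at ZT14, against 24.6, 24.9 and 25.7 CPM in TG and 27.5, 28.7 and 21.8 CPM in WT livers at ZT2. Dnajb6, which keeps polyglutamine proteins from aggregating, had 80.4, 79.3 and 72.2 CPM in TG and 82.9, 77.6 and 81.3 CPM in WT livers at ZT14, against 57.0, 56.1 and 51.4 CPM in TG and 59.3, 65.4 and 56.3 CPM in WT livers at ZT2. In both, no ZT2 library reached a ZT14 library. Their rises were 1.64-fold (log2 0.72, SE 0.08, adjusted p = 5.5e-05) and 1.37-fold (log2 0.46, SE 0.06, adjusted p = 0.000126). Dnaja2, a second class A DNAJ protein, had 109.6, 102 and 97.9 CPM in TG and 108, 101 and 110 CPM in WT livers at ZT14, against 90.4, 82.7 and 88.8 CPM in TG and 93.9, 95.5 and 86.5 CPM in WT livers at ZT2. The gap was narrow but complete, for a 1.17-fold rise (log2 0.23, SE 0.05, adjusted p = 0.0101). Dnaja4 and Dnajc7, a DNAJ protein with binding repeats for HSP90, did not pass the test (log2 0.21 and -0.06).

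Bag3 was the member of the BAG and related HSP70 cochaperones that rose. It links HSP70 and small heat shock proteins to autophagy and had 111, 107 and 65.0 CPM in TG and 88.4, 67.2 and 69.2 CPM in WT livers at ZT14, against 36.0, 28.6 and 29.0 CPM in TG and 34.2, 33.3 and 26.0 CPM in WT livers at ZT2. Every ZT14 liver lay well above the ZT2 livers, for a 2.70-fold rise (log2 1.43, SE 0.14, adjusted p = 1.8e-05). Bag1, a nucleotide exchange factor, ranged only from 68.2 to 81.7 CPM, and St13, the HSP70-interacting protein Hip, from 146 to 174 CPM. Neither passed the test (log2 0.02 and 0.01, SE 0.06 and 0.06).

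Of the HSP90 cochaperones 4 of 6 rose. Fkbp5 encodes FKBP51, which slows the glucocorticoid receptor and is itself induced by glucocorticoids, and had 80.1, 96.8 and 62.5 CPM in TG and 73.9, 64.0 and 58.8 CPM in WT livers at ZT14, against 19.6, 16.9 and 17.01 CPM in TG and 22.6, 21.2 and 19.5 CPM in WT livers at ZT2. The times were far apart in both genotypes, and the 3.73-fold rise had the smallest p of the members (log2 1.90, SE 0.10, adjusted p = 2.1e-07). Chordc1, an HSP90-binding protein, had 58.0, 63.9 and 54.4 CPM in TG and 58.5, 56.6 and 54.5 CPM in WT livers at ZT14, against 39.1, 36.5 and 32.6 CPM in TG and 38.7, 31.0 and 28.2 CPM in WT livers at ZT2. Its ranges did not touch, and it rose 1.68-fold (log2 0.75, SE 0.08, adjusted p = 4.3e-05).

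Fkbp4 encodes FKBP52, which acts opposite to FKBP51 on steroid receptors, and had 206, 236 and 206 CPM in TG and 224, 241 and 246 CPM in WT livers at ZT14, against 201, 166 and 181 CPM in TG and 161, 151 and 163 CPM in WT livers at ZT2. The ranges were apart, less so in TG, and the rise was 1.33-fold (log2 0.41, SE 0.06, adjusted p = 0.000661). Stip1 encodes the adaptor HOP that passes clients between HSP70 and HSP90, and had 100.2, 117 and 112 CPM in TG and 107, 107 and 105 CPM in WT livers at ZT14, against 105, 76.3 and 82.2 CPM in TG and 90.7, 72.2 and 77.6 CPM in WT livers at ZT2. The first TG library at ZT2 lay inside the ZT14 range. Stip1 rose 1.29-fold (log2 0.36, SE 0.09, adjusted p = 0.00859). Ahsa1, which speeds the HSP90 ATPase, and Cacybp, a partner of the ubiquitin ligase Siah1, did not pass the test (log2 0.12 and 0.22, adjusted p = 0.378 and 0.0704).

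**Figure D4:**
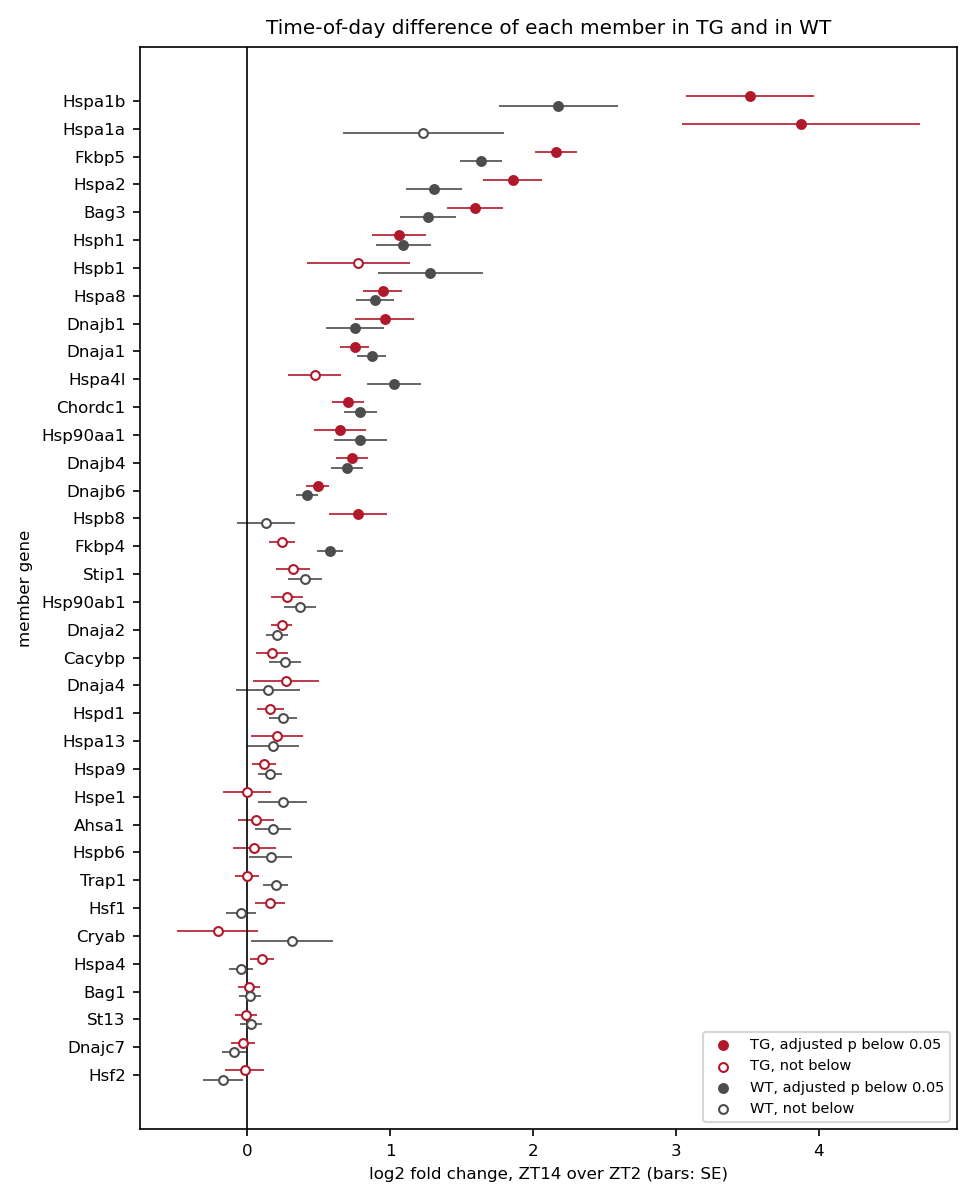
Log2 fold change of ZT14 over ZT2 with its standard error for each tested member in TG (red) and in WT (grey), ordered by the averaged difference; filled points had an adjusted p below 0.05. Filled points number 14 in TG and 15 in WT, all to the right of 0.

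The time difference itself did not pass a test of difference between genotypes. For the interaction, which subtracts the WT time difference from the TG one, 0 of 36 members were called by edgeR, against 0.00656% of all genes, and 0 by DESeq2 and by limma-voom. At an unadjusted p below 0.05 there were 5 members, against 5.98% of all genes. These were Hspa1a (interaction log2 2.64, SE 1.05), Hspa1b (1.34), Hspb8 (0.64), Fkbp5 (0.53) and Fkbp4 (-0.34). Fkbp4 was the only one of them with the smaller time difference in TG, 0.25 in TG and 0.58 in WT on the log2 scale.

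Between TG and WT livers no member was called. At ZT14 edgeR called 0 of 36 members, against 0.0853% of all genes, and 0 of 36 had an unadjusted p below 0.05, against 6.91% of all genes. At ZT2 it called 0, against 0.0722%, and 5 members had an unadjusted p below 0.05, against 7.56% of all genes. Averaged over both times it called 0, against 0.144%, with 2 at an unadjusted p below 0.05, against 8.82%. The median log2 difference of the members was -0.002 at ZT14 and 0.04 at ZT2, against 0.007 and -0.003 over all genes. DESeq2 called 0 at ZT14, 1 at ZT2 and 1 averaged over both times, and limma-voom called 0 in each. The 5 at ZT2 were Hspa1a, Hspa1b and Hspa2, lower in TG by the fit, and Hspa4l and Fkbp4, higher in TG by the fit.

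Hspa1a had the widest genotype gap at ZT2, 0.289, 0.165 and 0.0535 CPM in TG livers against 2.96, 2.85 and 0.362 CPM in WT livers. In reads these are 5, 3 and 1 in TG against 63, 45 and 7 in WT. The ranges did not overlap, though the third WT liver was close to the first TG liver. edgeR gave a log2 difference of -3.58 (SE 0.86, adjusted p = 0.333). DESeq2 called it (adjusted p = 0.00125), as did edgeR with no filter on low counts (adjusted p = 0.0178) and edgeR without the third WT library at ZT2 (adjusted p = 0.0301). Over all 22 alternatives its adjusted p ran from 0.00125 to 0.92. On uniquely mapped reads alone edgeR called 0 members at ZT2. With Hspa1b the same 2 WT libraries stood out, with 21.5, 10.8 and 15.9 CPM in TG against 43.0, 49.1 and 13.0 CPM in WT, and the groups overlapped (log2 -1.12, adjusted p = 0.604).

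Intron reads come mostly from RNA that is not yet spliced, and they set the WT livers at ZT2 apart from one another. Introns gave 0% to 31.4% of a member's reads, with a median of 3.24%, and 30 members had enough intron reads to test. The other 7 were the intronless Hspa1a and Hspa1b, and Hspa1l, Hspa2, Hspa13, Hspb1 and Cryab. Values here are intron CPM, scaled to the intron reads of each library. Hsph1 introns had 4.05, 5.39 and 7.24 intron CPM in TG livers at ZT2, against 61.6, 47.5 and 3.24 in WT livers. In reads these are 7, 11 and 15 in TG against 123, 80 and 7 in WT. The first and second WT livers were high, and the third lay below every TG liver.

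Hsp90aa1 and Hsp90ab1 introns showed the same division of libraries. Hsp90aa1 had 1.73, 3.43 and 1.93 intron CPM in TG livers at ZT2, against 24.0, 25.6 and 3.24 in WT livers. Hsp90ab1 had 12.7, 16.7 and 13.5 intron CPM in TG livers, against 96.6, 70.1 and 18.04 in WT livers. The third WT liver was within the TG range for Hsp90aa1 and just above it for Hsp90ab1.

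Among the cochaperones, Ahsa1 had 6.36, 6.38 and 2.90 intron CPM in TG livers at ZT2, against 23.5, 25.6 and 6.94 in WT livers. Stip1 had 16.8, 11.8 and 19.8 in TG against 65.1, 49.9 and 25.9 in WT, and Dnaja1 had 32.9, 30.4 and 42.0 in TG against 96.1, 106 and 45.3 in WT. In all 3 the WT livers lay above the TG livers, the third by little. Bag3 had 27.2, 24.5 and 31.4 in TG against 67.6, 76.1 and 28.2 in WT, and Fkbp4 had 16.8, 10.3 and 18.8 in TG against 42.5, 38.6 and 6.01 in WT. For both the third WT liver was inside or below the TG range.

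Over the 30 members tested on introns, the first WT liver at ZT2 exceeded all 3 TG livers at ZT2 in 26, the second in 22 and the third in 12. Among all 12380 genes tested on introns those shares were 30.7%, 28.8% and 26.0%. The third WT liver was the lowest of its group in 22 of the 30 members, against 33.5% of all genes. Total intron share did not divide the libraries this way, with 11.5%, 11.9% and 11.7% of all reads in introns in the 3 WT livers at ZT2, and 9.79% to 11.9% over all 12 libraries.

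By edgeR on intron reads, TG against WT at ZT2 gave 0 called members, against 0.0242% of all genes. At an unadjusted p below 0.05 there were 15 of 30, all lower in TG, against 10.1% of all genes in either direction and 4.99% lower. In 9 of 30 members all TG livers lay below all WT livers, against 6.76% of all genes. The median log2 difference was -0.67 over members and -0.01 over all genes. The smallest adjusted p among members was 0.233, for Stip1 (log2 -1.54, SE 0.33), Dnaja1 (log2 -1.22, SE 0.29) and Ahsa1 (log2 -1.82, SE 0.45). Without the third WT library at ZT2 edgeR called 7 members, all lower in TG. That library was the lowest of its group in 22 of the 30 members, so leaving it out raised the WT mean in those. DESeq2 on all libraries called 3 and edgeR with no filter on low counts called 9. Shares of all genes called in these fits are not given here, so the counts cannot be set against them. limma-voom called 0.

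Total gene reads of these genes had no such difference. For Hsph1 the TG against WT difference at ZT2 was 0.25 on the log2 scale in total gene reads (SE 0.19) and -2.71 in intron reads (SE 0.70). For Hsp90aa1 it was 0.27 in total gene reads and -2.83 in intron reads, and for Stip1 0.13 and -1.54. At ZT14 intron reads gave 0 called members, against 0.0323% of all genes, and 0 of 30 at an unadjusted p below 0.05, against 4.86%. DESeq2 and limma-voom also called 0 there.

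**Figure D5:**
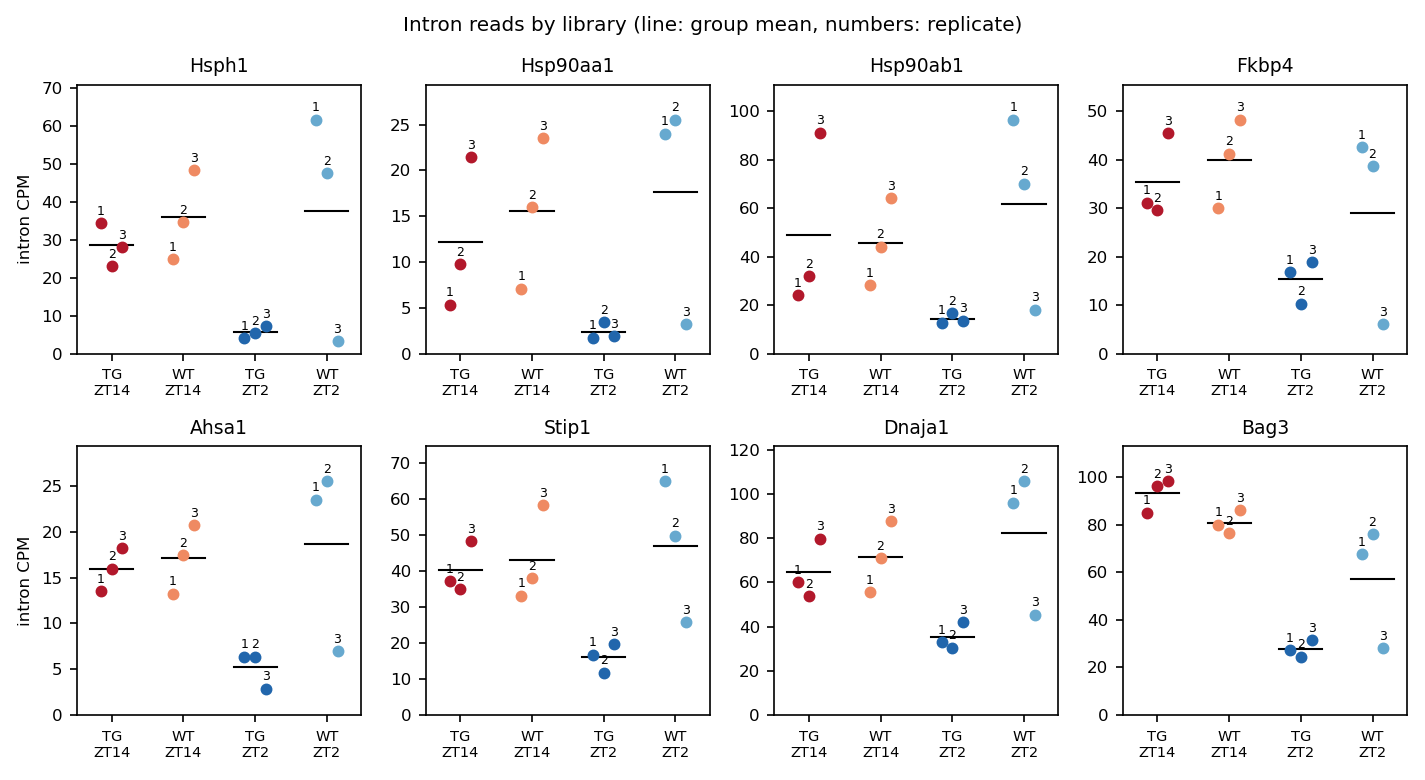
Intron reads of 8 members in intron CPM (linear axis starting at 0) in each library of TG ZT14, WT ZT14, TG ZT2 and WT ZT2, with the replicate number beside each point and a line at the group mean. In WT at ZT2 replicates 1 and 2 lie above all 3 TG livers at ZT2 and replicate 3 lies near them, as for Hsph1 with 61.6, 47.5 and 3.24 intron CPM.

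Between the times, intron reads were compared in each genotype. In TG, 4 of 30 members rose at ZT14 on intron reads, against 5.64% of all genes called and 3.06% called higher. These were Bag3 (3.36-fold), Fkbp5 (2.09-fold), Stip1 (2.50-fold) and Ahsa1 (3.07-fold). Bag3 was called under all 21 alternatives that kept the 0.05 threshold, while Ahsa1 was lost under 12 of them, Stip1 under 9 and Fkbp5 under 6. The member median was 0.74 on the log2 scale. In WT, Hspa4l alone of 30 rose (3.68-fold), against 1.93% of all genes called and 1.24% called higher, with a member median of -0.07. Averaged over genotypes 3 of 30 rose, Hspa4l, Bag3 and Fkbp5, against 11.3% of all genes called and 6.35% called higher. The share of members called was near that of all genes. Fkbp5 overlapped between the times and was lost under 16 of 21 alternatives. By edgeR the interaction on intron reads called 0 members, against 0.0162% of all genes, with 11 of 30 at an unadjusted p below 0.05, against 6.24%. The count in TG moved between 1 and 9 with single libraries left out, and was 9 without the third WT library at ZT2. That library is not part of the TG time comparison and enters its fit only through the shared spread, scaling and filter.

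Other stress-linked genes were read in the same livers at ZT2. Jun, an immediate early gene, had 10.8, 6.43 and 12.3 CPM in TG livers at ZT2, against 38.1, 15.3 and 10.5 CPM in WT livers. Cirbp, an RNA-binding protein known to rise in the cold, had 20.9, 20.9 and 26.8 CPM in TG livers, against 13.1, 14.9 and 30.6 CPM in WT livers. The first and second WT livers had the lowest Cirbp at ZT2, and the highest Jun. Rbm3, the other gene of the cold-inducible list, went the other way from Cirbp, with 15.8, 14.95 and 16.2 CPM in TG against 18.3, 19.8 and 17.5 CPM in WT, highest in the first and second WT livers. Egr1 did not follow, with 61.4, 139 and 25.6 CPM in TG against 50.9, 25.5 and 91.7 CPM in WT. Among other listed genes, Atf3 and Dusp1 divided the WT livers at ZT2 as Jun did, and Fos, Ddit3 and Gadd45a did not. All of these genes were picked after their values were seen, and any link to the intron reads was not tested.

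Other genes of the pathway were read from lists, in the averaged time comparison, where 12.0% of all genes were called higher and 10.4% lower. Of 14 genes of the TRiC chaperonin and prefoldin, which fold actin and tubulin, 0 were called by edgeR (median log2 0.06), and 5 had an unadjusted p below 0.05, against 34.2% of all genes, a share near that of the list. Of 20 other HSP90 and HSP70 cochaperones 2 rose, Unc45a (log2 0.37) and Cdc37l1 (log2 0.19), near the share of all genes called higher. Of 21 other tested DNAJ genes 4 rose and 2 fell, led by Dnajc27 (log2 -0.98), Dnajb5 (0.36) and Dnajb14 (0.33), again a share near that of all genes. Of 12 mitochondrial import and quality control genes 2 rose and 3 fell, led by the unfoldase gene Clpx (log2 -1.90), Tomm40 (0.48) and Grpel2 (-0.42).

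Of 18 tested stress-inducible genes outside the chaperones 6 rose and 3 fell, against 12.0% of all genes called higher and 10.4% lower. The largest differences among those called were those of Egr1 (log2 -3.86), an immediate early transcription factor, Dusp1 (1.12), a phosphatase of MAP kinases, and P4ha1 (1.03), a collagen prolyl hydroxylase. Of 13 glucocorticoid-responsive genes 3 rose and 1 fell, small counts that are not far from those shares of all genes. Here Per1, a clock gene with glucocorticoid response elements, led (log2 2.98), followed by Tsc22d3 (1.29) and Klf9 (-0.96). Of the pair of cold-inducible genes, Rbm3 rose (log2 0.72) and Cirbp fell (log2 -0.62). Of 6 further genes listed with the small heat shock proteins Hspb11 could be tested, and it fell (log2 -0.79). Its symbol alone does not show that its protein is a chaperone.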

How the data were processed

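Poly(A) liver RNA was sequenced in 12 libraries, 3 in each of 4 groups. The authors deposited read counts per gene (total, exon, intron and unique), together with TPM made from exon reads and exon length, per the file headers. Per the submitters' processing notes the genome was mm10 (GRCm38). The aligner and the counting tool are not given in the sources used.

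Total gene reads were tested with edgeR 4.0.16 in R 4.3.3 (quasi-likelihood, TMM scaling, filterByExpr at its settings of 10 reads per library and 15 in total), with all 12 libraries sharing 1 estimate of the spread. Of 48440 genes 15244 were tested, with Benjamini-Hochberg adjustment over all of them. A gene was called at an adjusted p below 0.05. Intron reads were fitted in the same way over 12380 genes. CPM was computed from the reads with TMM scaling. Library totals of 16035121 to 23981021 reads limit the precision of low genes such as Hspa1a.

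Alternatives were RLE and library-size scaling, DESeq2 1.42.0, limma-voom (limma 3.58.1), other filters, unique or exon reads, a stricter threshold, a replicate block, fits on the libraries of a contrast alone, and each library left out in turn. The intron fits other than the averaged time comparison, and unique intron reads, were added after seeing the data. The scripts were tested on simulated data. Replicates differed by more than sampling noise, with a chi-square per degree of freedom of 9.09 to 83.1.

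The members and gene lists were chosen with earlier results of these data known. Per-library CPM is given for the 20 called members with the smallest p in the averaged time comparison, other members are given by range or fold change, and from each other list the called genes with the largest change are named. Promoters and motif positions come from RefSeq on GRCm38.p6.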

Additional observations from a re-analysis of the deposited data

How the results depend on the processing

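The count of members that rose at ZT14 stayed between 19 and 22 averaged over genotypes, 12 and 16 in TG and 12 and 17 in WT with each library left out in turn. Of the 21 members, 19 were called under all 22 alternatives that kept the 0.05 threshold, while Hspd1 was lost under 16 and Hspb8 under 10. At an adjusted p below 0.01, 16 members were called, and Hsp90ab1, Hspb1, Dnaja2, Hspb8 and Hspd1 were not. Between TG and WT, DESeq2 and edgeR with no filter beyond 1 read each called 1 member lower at ZT2 and 1 averaged over both times. Leaving out libraries gave 0 to 1 in both comparisons, 0 to 0 at ZT14 and 0 to 0 for the interaction.

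Intron counts moved more. For TG against WT at ZT2 they were 3 by DESeq2, 9 with no filter and 0 to 7 with libraries left out, against 0 to 0 at ZT14. For the time comparison in TG they were 8 by library size alone, 2 by limma-voom, 13 with no filter, 1 at an adjusted p below 0.01, 1 without the 2 libraries that stood apart, and 1 to 9 with libraries left out. In WT they were 2 by library size alone, 0 at an adjusted p below 0.01 and 0 to 1 with libraries left out. Averaged over genotypes they were 11 by library size alone, 10 with no filter and 2 to 5 with libraries left out. Shares of all genes called under the same settings are not given here, so no gain of the members over all genes can be read from these counts. Library size alone moved the intron median of all genes by 0.174 in TG against WT at ZT2, and by 0.282 in WT, 0.171 in TG and 0.226 averaged in the time comparisons. The cause of the other moves was not tested.

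Same-numbered libraries did not pair: 2 of 18 pairs had a correlation over 0.1, with a range of -0.324 to 0.197. With the replicate number as a block, the members called were 20 averaged over genotypes, 14 in TG and 14 in WT for time, and 0 for each genotype comparison and the interaction. On introns the block gave 2 in TG, 2 averaged, 1 in WT and 0 between genotypes. Single-gene values were followed only for members with an unadjusted p below 0.05 by edgeR in the main fit, and none of these reversed its direction. Members with smaller differences were not followed. Low intron reads and shared reads limit the intron and the Hspa1a values.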
